A study of Mus musculus with 14 samples.

Results

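Out of 168650 autosomal regions that passed a floor on their level, 1185 were higher in all 3 Early libraries than in any of the other 11 libraries, and these 1185 regions are described here. They come from a list of 191271 accessible regions of the mouse genome (build mm9) profiled in neuronal nuclei of the hippocampus by ATAC-seq, an assay whose transposase inserts sequencing adapters where DNA is open. To choose them, each library's RPKM values (reads scaled to the length of the region and the reads of the library) were divided by that library's median over all regions. The result is called the relative level here, and a relative level of 1 is that of the library's median region. A region was a member when its mean deposited RPKM was at least 0.83 and the lowest of its 3 Early relative levels was above the highest of the other 11. The choice thus used the Early values themselves, so that the members are high in Early is a description and was not tested.

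The mice carried ArcCreERT2, a tamoxifen-dependent Cre recombinase driven from the locus of the activity-induced gene Arc, and a floxed eYFP reporter at R26R, with genotype +/+ on every label. All mice were given 4-Hydroxytamoxifen and then underwent contextual fear conditioning, and every label gives a foot shock on day 0. Early (n = 3) was collected on day 0 without recall, which the protocol puts at 1.5 to 2 h after the task, Reactivated (n = 3) had recall on day 5 and labels that give collection on days 5, 6 and 7 for replicates 1, 2 and 3 (the protocol text does not mention days 6 and 7, and whether these days are right was not settled here), Late (n = 4) was collected on day 5 without recall, and Basal (n = 4) carries the same treatment label as Early. Nuclei were stained for NeuN, Arc and GFP before sorting, and the labels do not say which sorted population is Basal. A difference of Early, Late or Reactivated from Basal therefore cannot be told apart from a difference between sorted populations. Late and Reactivated also differ from Basal in collection day. Tissue of 10 to 12 mice was pooled, and the labels do not tie libraries to animals, so the spread behind each p-value is that of libraries and may be partly technical. In a mixture of nuclei, a lower level in every nucleus and fewer open nuclei cannot be told apart.

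Accessible regions are stretches of DNA with few nucleosomes, where transcription factors can bind, and they include promoters and distal enhancers. In hippocampal neurons, activity is known to open enhancers bound by activity-induced factors such as those of the AP-1 family, and nuclei in which Arc was active during learning are used to mark the cells of a memory trace, often called an engram. No gene name accompanies the regions and no mm9 annotation or sequence was used here, so each region is given by its position as the deposited table writes it.

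Libraries held 46134253 to 56251676 reads by the totals behind the RPKM values, of which 13.2% to 27.8% lay in regions. The 4 Late libraries held 46134253 to 47375212 reads, Reactivated replicate 1 held 56251676 and all others 54257222 to 54269492. Why the totals of these others lie so close together was not tested. In contrasts with Late, its lower totals cannot be told apart from the difference of the groups. The Early libraries were the most unlike each other in this share, at 13.8%, 27.8% and 18.1% in replicates 1, 2 and 3, against 21.3% to 24.0% in Reactivated, 18.4% to 20.02% in Late and 13.2% to 19.3% in Basal. Their median deposited RPKM was 1.00, 1.71 and 1.22, in the same order. The division by the median removes this difference in level, and it decides which regions are members. On the RPKM values as deposited the same rule gave 719 regions, of which 186 were among the 1185 (15.7% of these members and 25.9% of the 719). With median-of-ratios scaling it gave 1289, of which 1096 were members (92.5% of the members).

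Members were 0.703% of the regions over the floor. If every trio of the 14 libraries were equally likely to be the highest, 1 in 364 would give 463 regions, and the observed count was 2.56 times that. Libraries of a group share their preparation, so this number is an arithmetic mark and not a test. The same count was 2693 for the 3 Reactivated libraries (1.6%), 1176 for the 4 Late libraries (0.697%) and 5047 for the 4 Basal libraries (2.99%). For groups of 4, 1 in 1001 would give 168 regions. The regions lowest in all 3 Early libraries numbered 3908 (2.32%), so Early stood below all other libraries at more regions than it stood above them.

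**Figure D1:**
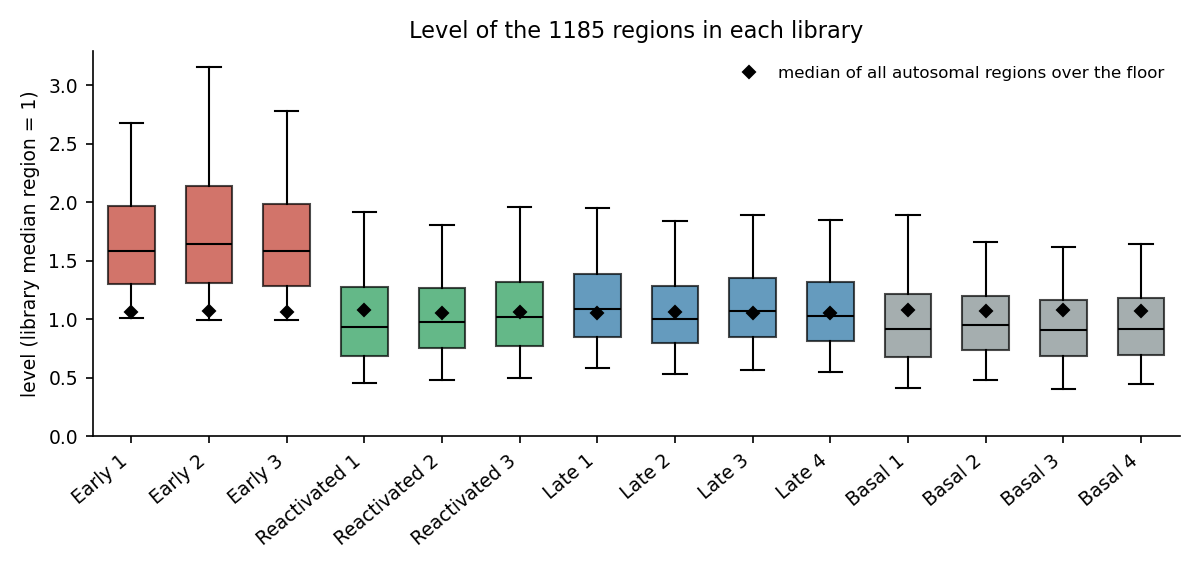
Relative level (library median region = 1) of the 1185 regions in each of the 14 libraries. Boxes span the quartiles with the median as a line, whiskers run from the 5th to the 95th percentile, and diamonds mark the median of all 168650 autosomal regions over the floor. Member medians are 1.58 to 1.64 in the Early libraries and 0.907 to 1.09 in the others.

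At the members, the median relative level was 1.58, 1.64 and 1.58 in Early replicates 1, 2 and 3. It was 0.937, 0.979 and 1.02 in Reactivated replicates 1 to 3, between 1.01 and 1.09 in Late and between 0.907 and 0.952 in Basal, as the plot of levels by library shows. Outside Early, these are therefore regions of about the median level. The mean of the Early libraries exceeded the mean of the other 11 by a median of 1.63-fold (quartiles 1.48 and 1.82). A fold of at least 1.5 was reached at 834 members and a fold of at least 2 at 130.

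The gap between the groups was narrow at most members. The margin, defined here as the lowest Early value over the highest of the other 11, had a median of 1.06 and quartiles of 1.03 and 1.12. It reached 1.1 at 391 members, 1.2 at 99 and 1.5 at 4. The reads behind it were few, with a median of 48 in the lowest Early library of a region and 47 in the highest other library. The 95% interval of the margin from counting error alone lay above 1 at 6 of the 1185 members. The order of the libraries at a single member is therefore not resolved by the depth at nearly all of them. Such intervals cover counting error only. The rule itself requires a margin above 1, and the regions named below were picked for large margins. An interval above 1 is therefore a description and not a test.

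Values at the edge of the rule show how little separates members from the rest. Just inside, chr10:25999144-26000207 had 1.31, 1.31 and 1.39 in Early, and its highest other library, Basal replicate 4, also stood at 1.31. At chr2:20328735-20329106 and chr8:67033689-67034640 the lowest Early value (2.48 and 0.887) was likewise the same to 3 digits as the highest other. Just outside, chr1:29378552-29379969 had 1.31, 1.32 and 1.44 in Early and 1.31 in Late replicate 1. At chr2:13714360-13715791 and chr6:57749014-57749518, also just outside, the lowest Early values were 2.17 and 2.10. On the floor, chr2:135344420-135345572 was the member of lowest mean (0.834 RPKM), and chr2:78195746-78196292, at 0.825 RPKM, was the nearest left out. Without the Early libraries, the mean of the other 11 reached 0.83 RPKM at 1089 of the 1185 members, and the other 96 passed the floor through their Early values, among them chr2:135344420-135345572 and chr8:67033689-67034640.

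**Figure D2:**
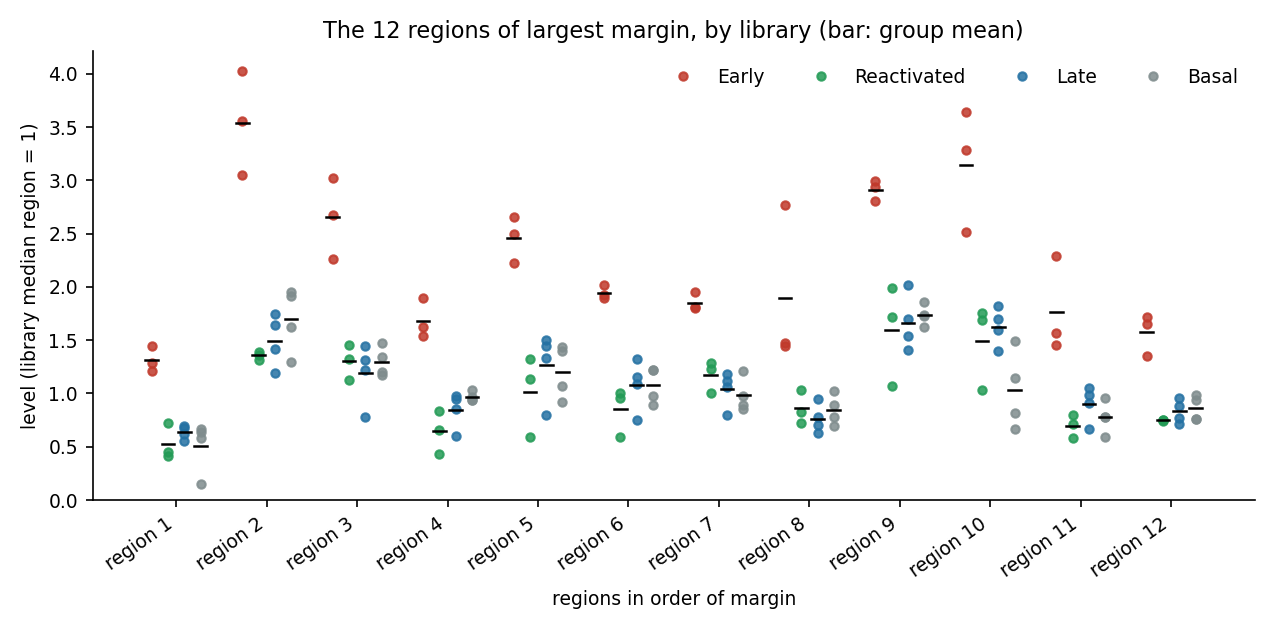
Relative level (library median region = 1) in every library at the 12 members of largest margin with at least 20 reads in each Early library. From region 1 to region 12 they are chr5:56508633-56509460, chr15:13516599-13516786, chr8:39820258-39820671, chr13:104392117-104392762, chr13:79134348-79134493, chr5:14237602-14238284, chr14:111752816-111753362, chr6:16616242-16616540, chr12:60823728-60824278, chr4:10388622-10389110, chr8:64309549-64309926 and chr11:9641385-9642057. Points are libraries coloured by group and black bars are group means. At each of the 12 the lowest Early point lies 1.37 to 1.67 times above the highest point of the other groups.

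The member of largest margin was chr5:56508633-56509460, 827 bases long. Its relative level was 1.29, 1.21 and 1.44 in Early, against 0.416, 0.447 and 0.725 in Reactivated, 0.680, 0.624, 0.556 and 0.695 in Late, and 0.583, 0.642, 0.147 and 0.671 in Basal. Early was above the median region and all 11 other libraries below it, with a margin of 1.67 (95% counting interval 1.18 to 2.37). Without Early its mean was 0.716 RPKM, under the floor. Those values rest on 58, 93 and 79 reads in Early and on 6 to 47 reads elsewhere, and Basal replicate 3, with 6 reads, is far below the other Basal libraries.

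The highest levels among these 12 were at chr15:13516599-13516786, a narrow region of 187 bases. It had 4.02, 3.05 and 3.55 in Early, against 1.31, 1.39 and 1.36 in Reactivated, 1.42, 1.64, 1.19 and 1.74 in Late, and 1.91, 1.62, 1.95 and 1.30 in Basal. The 3 Early values lie apart from the rest, yet with 41 to 53 reads in Early and 14 to 23 elsewhere the counting interval of the margin ran from 0.917 to 2.67.

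At chr8:39820258-39820671 the Early libraries had 2.27, 3.02 and 2.67, against means of 1.30 ± 0.166 in Reactivated (SD, n = 3), 1.19 ± 0.287 in Late (n = 4) and 1.30 ± 0.135 in Basal (n = 4). The other groups overlapped each other there. At chr13:104392117-104392762 Early had 1.68 ± 0.189, against 0.644 ± 0.202 in Reactivated, 0.844 ± 0.170 in Late and 0.970 ± 0.0416 in Basal. There Late overlapped both of the other groups while all Reactivated values lay below all Basal values, and the counting interval of the margin was 1.01 to 2.20.

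The smallest SD of Early among the 12 was 0.0640, at chr5:14237602-14238284, with Early at 2.02, 1.89 and 1.93, against 0.851 ± 0.224 in Reactivated, 1.08 ± 0.240 in Late and 1.08 ± 0.170 in Basal. Its margin of 1.43 had a counting interval of 1.04 to 1.96. At chr12:60823728-60824278 Early stood at 2.80, 2.93 and 2.99, against 1.07, 1.72 and 1.99 in Reactivated, 2.02, 1.70, 1.54 and 1.41 in Late, and 1.73, 1.86, 1.62 and 1.74 in Basal. This region was open in every library, and its margin of 1.39 had an interval of 1.01 to 1.92.

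At 2 of the 12, Early replicate 1 alone was far above the rest. At chr6:16616242-16616540 it had 2.77, beside 1.44 and 1.47 in Early replicates 2 and 3, against 0.862 ± 0.154 in Reactivated, 0.763 ± 0.136 in Late and 0.848 ± 0.139 in Basal. At chr8:64309549-64309926 it had 2.29, beside 1.46 and 1.56, against 0.699 ± 0.107, 0.903 ± 0.167 and 0.778 ± 0.149 in Reactivated, Late and Basal. The reverse order was seen at chr4:10388622-10389110, where Early replicate 1 was the lowest of the 3 (2.52, 3.64 and 3.28 in replicates 1 to 3), against 1.49 ± 0.397 in Reactivated, 1.63 ± 0.177 in Late and 1.03 ± 0.369 in Basal.

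The remaining 3 of the 12 were chr13:79134348-79134493, chr14:111752816-111753362 and chr11:9641385-9642057, with Early means of 2.46 ± 0.218, 1.85 ± 0.0827 and 1.57 ± 0.197. Over the 12 regions the Early mean was 1.74 to 2.34 times the mean of the other libraries. The highest other library was a Late one at 5 of the 12, a Basal one at 4 and a Reactivated one at 3.

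Members with the highest mean RPKM were short regions with narrow margins. The highest, chr5:40029170-40029359 (4.92 RPKM over all libraries), had relative levels of 4.37, 7.52 and 5.28 in Early, against 4.10, 2.90 and 3.37 in Reactivated, 3.59, 4.27, 2.20 and 3.20 in Late, and 3.29, 3.51, 1.61 and 3.58 in Basal. Only Early replicate 2 stood clearly apart, and replicate 1 was within 1.02 times of Late replicate 2. Early replicate 2 was also the highest at chr8:102287033-102287156 (7.00, beside 4.77 and 4.42), chr2:112037033-112037311 (5.11, beside 3.30 and 4.08) and chr1:14474510-14474980 (6.00, beside 3.82 and 3.76). Their other libraries reached 4.17, 3.21 and 3.51.

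The 3 widest members were chr4:64463535-64466408, chr9:79564345-79566750 and chr1:33555715-33558081, of 2873, 2405 and 2366 bases. With 105 to 334 reads in each library, they are among the better counted members, and their Early values were only a little higher. The first had 1.02, 1.14 and 1.18 in Early, against 0.832 ± 0.106 in Reactivated, 0.883 ± 0.150 in Late and 0.828 ± 0.0745 in Basal. Early means were 1.31, 1.26 and 1.22 times those of the other libraries at the 3 regions.

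Within Early, the highest library exceeded the lowest by a median of 1.24-fold over the members. Replicate 1 was the lowest of the 3 at 475 members, replicate 3 at 407 and replicate 2 at 303, and replicate 2 was the highest at 510. On the RPKM values as deposited, Early replicate 2 was the highest of all 14 libraries at 1130 of the 1185 members (95.4%). Early replicate 2 has the largest share of reads in regions of all 14 libraries, 27.8%, and the part of this in the members was not tested. Without Early replicate 2 the rule gave 3122 regions, without replicate 1 it gave 4890 and without replicate 3 it gave 3435, since fewer libraries have to pass.

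Those larger sets can be split by the Early library left out of the choice. Of the 4890 regions chosen by Early replicates 2 and 3, replicate 1 stood above all 11 other libraries at 24.2%, beside 9.38% of all regions over the floor. For replicate 2 the shares were 38.0% of the 3122 regions chosen without it and 14.9% of all, and for replicate 3 they were 34.5% of 3435 and 7.77% of all. The regions that pass are by construction the same 1185 members each time, so these shares restate the rule and nothing is read from them. A choice by a pair of Early libraries also favours regions where the 11 are low: if all trios were alike, the left-out library would pass at 21.4%. The left-out library lay below all 11 at 4.03%, 3.04% and 1.78% of the regions chosen without replicates 1, 2 and 3, against 13.8%, 9.82% and 9.14% of all regions over the floor. The choice by a pair shifts the lower share as well, so all regions over the floor are not a matching reference for it. These shares are descriptions, with no test.

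**Figure D3:**
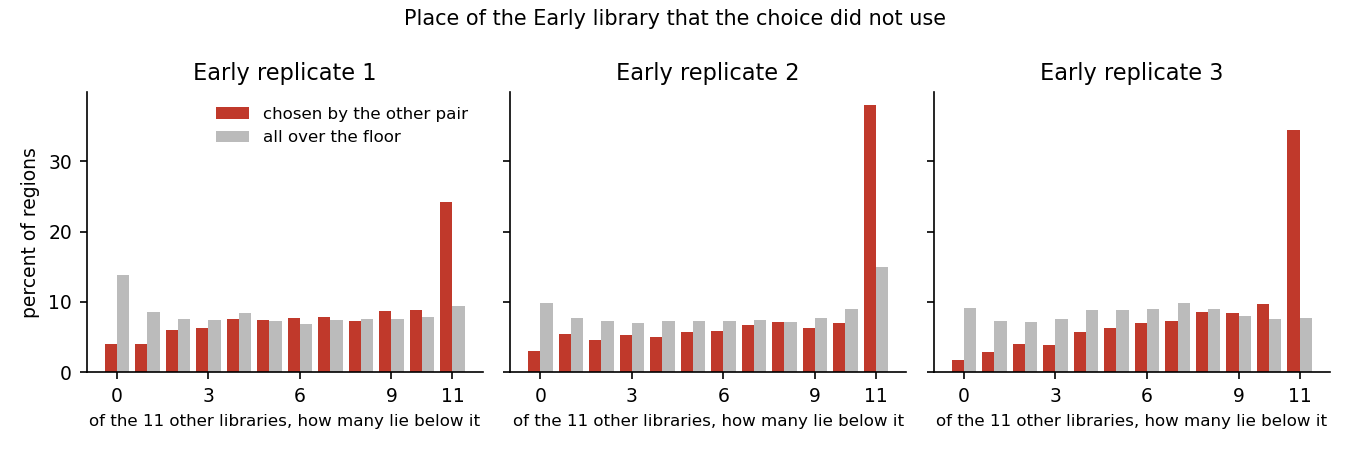
For each Early library, the percent of regions (vertical) by how many of the 11 Reactivated, Late and Basal libraries lie below it (horizontal). Red bars are the regions chosen by the other 2 Early libraries and grey bars are all 168650 autosomal regions over the floor. The red bar at 11 holds the 1185 members in each panel and stands at 24.2%, 38.0% and 34.5% for replicates 1, 2 and 3. If all trios were alike it would stand at 21.4%, so the grey bar is not its reference.

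The rule makes no comparison among the other groups, because it treats the 11 libraries alike. It does hold all 11 below the Early values, which limits how far apart they can be. It also leaves out regions where another group is as high as Early. Over all tested regions, Early was called different from Basal at 25119 and from Late at 1263. The choice of members can therefore favour a direction among the other groups, such as Late above Basal. Its part in the shares below was not tested. All 14 libraries entered 1 limma fit of log2(relative level + 0.25) over 172144 regions, with Benjamini-Hochberg adjustment over all of them and a threshold of 0.05, and all 1185 members were among those tested. On this scale the fold changes of low regions are understated.

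Late was above Basal at 123 members and below it at 11 (10.4% and 0.928% of the members). Over all tested regions 14.3% were called higher and 16.2% lower in Late, 30.5% in all against 11.3% of the members. The members' median log2 fold change was 0.15 (quartiles -0.04 and 0.35), with 70.0% above 0, beside a median of 0.00 and 49.7% above 0 over all tested regions. On the deposited RPKM scale, where the median log2 fold change over all regions was 0.28, calls over all regions also leaned to Late, 41203 higher and 10380 lower. There 288 members were called higher (24.3%, beside 23.9% of all tested regions) and 0 lower (beside 6.03%). The balance over all regions is thus that of the median scaling. Without the members under the floor outside Early, 121 higher and 8 lower calls were left. The number of members called was 72, 85 and 77 without Late replicates 1, 2 and 3, beside 23.0%, 24.3% and 22.1% of all tested regions. It was 71 when the percent of reads in regions entered as a covariate, beside 21.8% of all. With the 4 Late libraries averaged to 1 sample, 0 members passed in limma and 42 had an unadjusted p under 0.05.

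The largest of these differences was at chr16:24854553-24854701, where Late had 1.56, 1.74, 1.40 and 2.10 and Basal 0.420, 1.15, 0.137 and 0.938, with 2.11, 2.40 and 3.16 in Early. The log2 fold change was 1.26 ± 0.30 SE (limma, Benjamini-Hochberg adjusted p = 0.00695). All 4 Late values were above all 4 Basal values, but the region is only 148 bases long and Basal replicate 3 stood at 1 read, the lowest value the table gives. At chr10:55539104-55539351 Late had 1.94, 1.04, 1.74 and 1.38 and Basal 0.693, 0.768, 0.410 and 0.211, with 2.45, 2.48 and 2.26 in Early (log2 fold change 1.25 ± 0.25 SE, limma, Benjamini-Hochberg adjusted p = 0.00280). At chr19:19298127-19298455 Late had 1.26, 1.52, 1.31 and 1.42 and Basal 0.190, 0.636, 0.556 and 0.529, with 2.07, 2.00 and 2.49 in Early (log2 fold change 1.21 ± 0.23 SE, limma, Benjamini-Hochberg adjusted p = 0.00191). At all 3, every Late value lay above every Basal value. That Early lay above both is set by the rule, and at chr16:24854553-24854701 its margin was only 1.004.

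Reactivated was above Basal at 58 members and below it at 17 (6.33% of the members were called), where 10.1% of all tested regions were called higher and 9.96% lower (20.1% in all). The members' median log2 fold change was 0.07, beside 0.08 over all regions. On the deposited scale the median over all regions was 0.39, with 41783 regions called higher and 8235 lower, and 176 members higher and 1 lower. The number of members called was 47 without Basal replicate 3, beside 13.5% of all tested regions. It was 36 and 26 without Reactivated replicates 2 and 3 (12.4% and 8.41% of all), and 38 with the replicate number as a block (15.0%). With the percent of reads in regions as a covariate, 0 members and 0 regions passed in limma. In that fit 79 members and 23951 of all regions had an unadjusted p under 0.05. Of the 75 called, 50 were also called in Late against Basal, 48 of them higher in both comparisons, which share the Basal libraries. The same overlap over all tested regions was not computed, so nothing is read from it.

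At chr15:59897240-59897596 Reactivated had 0.794, 1.39 and 1.29 and Basal 0.350, 0.373, 0.341 and 0.341, with 1.55, 1.60 and 1.61 in Early and 1.04 ± 0.227 in Late (SD, n = 4). Its log2 fold change of Reactivated over Basal was 1.199 ± 0.20 SE (limma, Benjamini-Hochberg adjusted p = 0.00284). The 4 Basal libraries were nearly equal there, at 6 to 8 reads each, and every other library was above them. At chr19:19072214-19072477, where every other library was again above all Basal ones, Reactivated had 1.17, 1.15 and 1.12 and Basal 0.177, 0.361, 0.616 and 0.396 (log2 fold change 1.17 ± 0.22 SE, limma, Benjamini-Hochberg adjusted p = 0.00423), beside 1.39, 1.39 and 1.78 in Early. The largest fold change was at chr9:90434800-90434982, with 1.08, 1.36 and 1.68 in Reactivated and 0.256, 0.417, 0.111 and 1.14 in Basal (1.32 ± 0.36 SE, limma, Benjamini-Hochberg adjusted p = 0.0189). There Basal replicate 4 overlapped the Reactivated values, and the Early libraries had 1.81, 2.13 and 2.08.

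Reactivated and Late differed at 3 members, 1 higher and 2 lower in Reactivated (0.253% of the members). Over all tested regions 0.71% were called higher and 0.361% lower, 1.07% in all. That majority turned with the processing: 1223 regions were higher and 621 lower, but 44 and 353 on the deposited scale, 93 and 540 under quantile normalization, and 12 and 96 with the replicate block. The members' median log2 fold change was -0.08 and 34.6% were above 0, beside a median of 0.05 and 55.9% above 0 over all regions. At chr2:154008847-154009074 Reactivated had 0.866, 0.905 and 0.730 and Late 0.146, 0.0710, 0.326 and 0.410, with 1.78, 1.61 and 0.932 in Early (log2 fold change 1.21 ± 0.27 SE, limma, Benjamini-Hochberg adjusted p = 0.0444). Late held 1 to 6 reads there, and without Early the region's mean was 0.661 RPKM, so it passed the floor through its Early values. At chr11:26482749-26482932 Reactivated had 0.336, 0.899 and 0.627 and Late 1.63, 1.67, 1.62 and 1.27, with 2.71, 2.59 and 1.98 in Early (log2 fold change -1.09 ± 0.25 SE, limma, Benjamini-Hochberg adjusted p = 0.0440). At chr18:20634349-20634581 Reactivated had 0.953, 0.591 and 0.550 and Late 1.28, 1.60, 1.66 and 1.61, with 1.74, 1.86 and 1.89 in Early (log2 fold change -0.93 ± 0.19 SE, limma, Benjamini-Hochberg adjusted p = 0.0295). Reactivated had the lowest mean of the 4 groups at the last 2 regions, without overlap with Late. These 3 calls were lost in 17, 15 and 9 of 24 alternative settings, and few libraries could be spared. Without Late replicate 1, 2, 3 or 4 and without Reactivated replicate 2 or 3, 0 members passed in limma. In these fits 52 to 65 of the 1185 members had an unadjusted p under 0.05, beside 20680 to 23427 of 172144 regions. Without Reactivated replicate 1, Early replicate 3, Basal replicate 2 or Basal replicate 4, 1 member passed.

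By group means, Late was the highest of the 3 at 52.1% of members, beside 27.7% of all regions over the floor, and Basal was the lowest at 51.6%, beside 41.6%. The order Late, Reactivated, Basal was the most frequent, at 398 members (33.6%, beside 20.2% of all). The single library closest below Early was a Late one at 536 members (45.2%), a Basal one at 355 (30.0%) and a Reactivated one at 294 (24.8%), where these groups hold 36.4%, 36.4% and 27.3% of the 11 libraries. It was Late replicate 1 at 190. The part of the choice of members in these orders was not tested.

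For completeness, the contrasts that chose the members are given as values only. The Early mean exceeded the Reactivated mean by a median of 1.62-fold, the Late mean by 1.52-fold and the Basal mean by 1.73-fold, and by at least 2-fold at 224, 104 and 324 members. In the limma fit over all regions Early was called above Reactivated at 149 members (1.02% of all tested regions were called higher), above Late at 29 (0.267%) and above Basal at 611 (8.06%). The rule used these contrasts, so nothing is read from these counts.

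Width and spacing, which the rule did not use, were close to those of all regions over the floor. Members had a median width of 566 bases (quartiles 351 and 879), beside 529 bases (324 and 854). By width class they were 0.559% of regions under 200 bases, 0.644% of those from 200 to 500, 0.798% from 500 to 1000, 0.729% from 1000 to 2000 and 0.441% of those of 2000 or more. In a window of 250 kb to either side, a member had a median of 52 other regions (quartiles 40 and 63), beside 48 (35 and 61), and its nearest region lay 3977 bases away, beside 3922. The regions lowest in Early were of another kind, with a median width of 898.5 bases and 30 other regions within 250 kb. The regions highest in Reactivated were 870 bases wide with 45 neighbours, and those highest in Late 550 bases wide with 42.

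**Figure D4:**
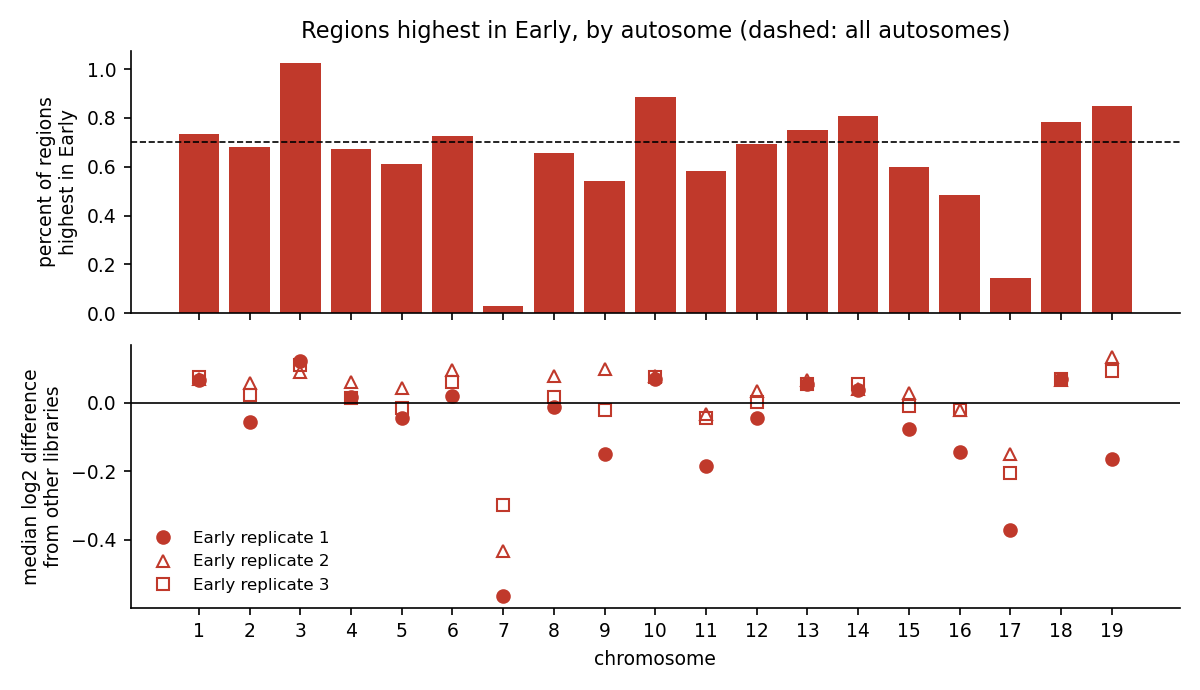
Upper panel, percent of the regions over the floor on each autosome that were highest in Early, with the share over all autosomes (0.703%) as a dashed line. Lower panel, for each Early library, the median over those regions of its log2(relative level + 0.25) minus the mean of the other 11 libraries. Chromosomes 7 and 17 stand lowest in both panels.

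Members lay on all 19 autosomes. Chromosome 3 had the most, 148 of 14455 regions (1.02%), followed in share by chromosome 10 with 105 of 11837 (0.887%) and chromosome 19 with 26 of 3069 (0.847%). Chromosome 7 had 1 of 3422 (0.0292%) and chromosome 17 had 5 of 3477 (0.144%). On those 2 chromosomes the regions lowest in Early were frequent, 588 (17.2%) and 275 (7.91%), where chromosome 3 had 92 (0.636%). Over all regions of chromosome 7, whether members or not, Early was lower than the other libraries by a median log2 difference of -0.56, -0.43 and -0.30 in replicates 1, 2 and 3. On chromosome 17 the differences were -0.37, -0.15 and -0.20, and on chromosome 3 they were 0.12, 0.09 and 0.11. The Early libraries did not always go together: on chromosome 19 replicate 1 was at -0.16 and replicates 2 and 3 at 0.13 and 0.09.

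**Figure D5:**
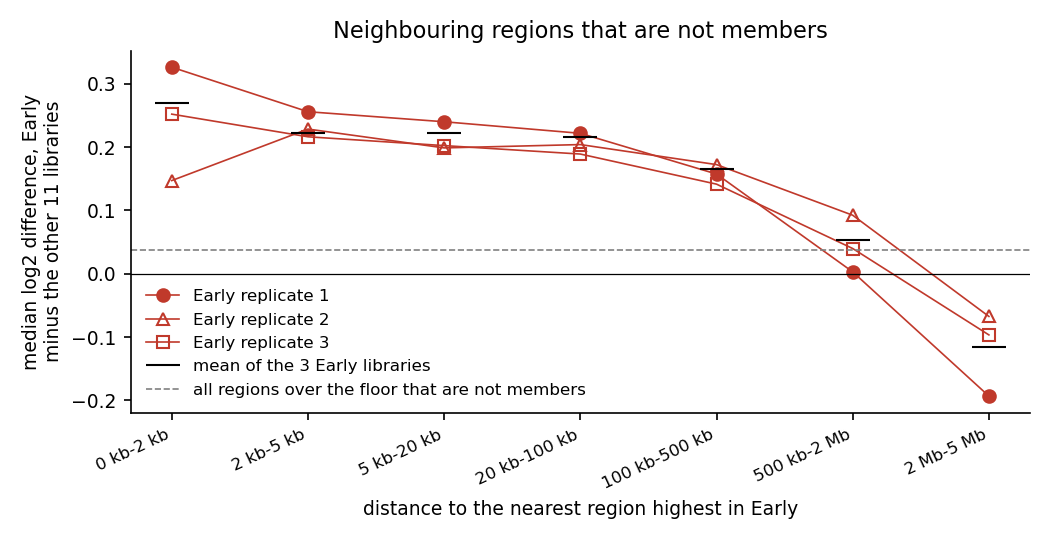
Median log2 difference of Early from the other 11 libraries at regions over the floor that are not members, by distance to the nearest member. Red symbols are the 3 Early libraries, black bars the median for their mean, and the dashed line the median of all non-members (0.04). The difference stays near 0.22 from 2 kb to 100 kb and is below 0 from 2 to 5 Mb.

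Regions around the members also ran higher in Early. Among 324 non-members centred within 2000 bases of a member, the Early mean was above the mean of the other libraries at 84.0%, with a median log2 difference of 0.27. At 5000 to 20000 bases it was above at 82.5% of 3252 regions (0.22), at 20000 to 100000 bases at 80.6% of 14636 (0.22) and at 100000 to 500000 bases at 73.3% of 42559 (0.16). Over all non-members the share was 54.3% and the median 0.04. At 2000000 to 5000000 bases the median was -0.12. Each Early library showed the higher neighbours, by 0.22, 0.20 and 0.19 in replicates 1, 2 and 3 at 20000 to 100000 bases. The distance classes were set after the values had been seen. At the neighbours from 20000 to 100000 bases the median log2 difference of Late from Basal was 0.03, beside -0.01 over all non-members. Reactivated was lower there: its median difference from Late was -0.07, beside 0.06 over all non-members, and its difference from Basal was -0.02, beside 0.07. Within 2000 bases the difference of Reactivated from Late was -0.14.

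The scale of these stretches shows in windows of 5 Mb, which were laid over the autosomes after the values had been seen. Of 504 windows 208 held no member, and 15 held 10 or more, with 198 members in all. The window at 130 to 135 Mb of chromosome 3 held 26 members among 662 regions (3.93%), the window at 115 to 120 Mb of chromosome 14 held 17 of 642 (2.65%), and the window at 5 to 10 Mb of chromosome 11 held 16 of 464 (3.45%). At the non-members of the window on chromosome 3 Early was above the others at 84.7%, with medians of 0.36, 0.08 and 0.22 in replicates 1, 2 and 3, so replicate 1 was highest there. The share was 82.4% in the window on chromosome 14 but 63.8% in that on chromosome 11. The window at 150 to 155 Mb of chromosome 3 held 12 members, and its share was 54.1%, beside 54.3% of all non-members. Windows with many members were thus not always raised in Early as a whole. When the 486 windows with at least 50 regions were sorted into 5 equal classes by the median of their non-members, members were 0.0107%, 0.181%, 0.532%, 0.991% and 1.28% of the regions from the lowest class to the highest. Sorting and members use the same libraries, so this describes how the members are spread and is not a test. In 16 pairs, neighbouring members lay within 10 kb of each other, and the median gap was 561.5 kb. The number of pairs expected from the spacing of all regions was not computed.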

How the data were processed

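RPKM values for 191271 regions in 14 libraries were deposited by the authors in 1 table, with a column for each library. Bowtie2 2.0, SAMtools, MACS2, DiffBind, DESeq2 and mm9 are named per the submitters' processing notes, with no role or order. The sources used here do not give how regions were called, whether duplicates were removed or whether cut sites were shifted, steps that set region borders and the reads at high regions. Whether starts count from 0 or 1 is not given either.

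RPKM times region length gave whole multiples of 1 step per library for 100% of values (tolerance 0.01), from which reads and totals were recovered by taking the lowest step of each library as 1 read. No value was 0, so 1 read may be a floor. Regions had a median of 25 to 47 reads per library. For the percent of a library's reads that lay in regions, 95% Wilson intervals were a few hundredths of a percentage point wide (20.0076% to 20.0304% for Late replicate 3).

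Columns were divided by their medians. Group means were fitted with limma 3.58.1 (R 4.3.3, 2-sided, trend and robust options on) over all 14 libraries, without the 10% of regions of lowest mean. It was tested on simulated data. Python 3.11.15, numpy 2.4.6, pandas 2.3.3 and scipy 1.17.1 did the rest. Same-numbered libraries of different groups did not deviate together (correlations -0.25 to 0.06), so no pairing was used.

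The members and all rules were chosen with earlier results of these data known. Named regions are the 12 members of largest margin with at least 20 reads in each Early library, the 4 of highest mean, the 3 widest, the 3 largest called fold changes per contrast among the other groups, and those beside the rule's limits. Alternatives were other scalings, pseudocounts of 0.1 and 1, no filter, other floors and margins, leaving out each library, averaging Late, a replicate block, the 2 compared groups alone and a covariate. Planned work on genes, motifs and cell type markers needs an mm9 annotation and was not run.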

Additional observations from a re-analysis of the deposited data

Results flagged for a closer look

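Among 70 sets of 4 Basal or 4 Late libraries at the named members and for whole-library measures, 4 had a library far from the other 3, and about 1 in 20 such sets is flagged by chance. At chr5:56508633-56509460 Basal replicate 3 had a relative level of 0.147, where the other Basal libraries had 0.583 to 0.671. At chr5:40029170-40029359 Basal replicate 3 had 1.61, where the others had 3.29 to 3.58. At chr11:26482749-26482932 Late replicate 4 had 1.27, where the others had 1.62 to 1.67. At chr18:20634349-20634581 Late replicate 1 had 1.28, where the others had 1.60 to 1.66.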

How the results depend on the processing

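The number of regions highest in Early was 719 on the deposited RPKM, 189 at a mean of at least 2 RPKM, 99 when the lowest Early value had to be at least 1.2 times the highest other, 2564 with the 4 Late libraries averaged to 1, and 1298 to 4890 with single libraries left out, which can only add regions. Without a floor it was 1230 and with median-of-ratios scaling 1289. Depth limits the order of libraries at single members. The cause of the changes below was not tested. Averaging Late leaves 1 sample in that group, whose spread is taken from the others, so only fold changes are given here for that fit. The members' median log2 fold change was 0.15 for Late against Basal, -0.08 for Reactivated against Late and 0.07 for Reactivated against Basal. These are the same as with the 4 Late libraries kept apart. On the deposited scale 288 members were called for Late against Basal (24.3%, beside 30.0% of all tested regions). The members called were 0 for Reactivated against Late (beside 0.231% of all) and 177 for Reactivated against Basal (14.9%, beside 29.1% of all). For Reactivated against Late, 34 members and 19532 of all regions had an unadjusted p under 0.05. There 397 regions passed in all, most of them lower where the median scaling gave most higher. With the percent of reads in regions as covariate there were 71, 1 and 0 members for Late against Basal, Reactivated against Late and Reactivated against Basal. Beside them stood 37563, 1675 and 0 regions, with 23951 unadjusted for Reactivated against Basal. The replicate block gave 108 regions and 0 members for Reactivated against Late, where 61 members and 22613 regions had an unadjusted p under 0.05. It gave 38 members and 25770 regions for Reactivated against Basal, and 104 members and 46586 regions for Late against Basal. Reactivated against Late had 633 regions under quantile normalization and 6437 in a fit of those groups alone. With a pseudocount of 1 it had 1 member and 1787 regions. Reactivated against Basal had 40 members and 31870 regions in a fit of those groups alone. With single libraries left out, Late against Basal had 38051 to 57489 regions and 72 to 141 members, Reactivated against Late 93 to 3725 regions and 0 to 4 members, and Reactivated against Basal 14480 to 40998 regions and 26 to 86 members. The difference of Early from the others kept its sign at the 32 named members in all 576 combinations of member and setting, which the choice of members in part fixes.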

Other observations

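On chromosome X, which the autosomal rule leaves out, 10 of 3365 regions over the floor were highest in all 3 Early libraries (0.297%).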
